A study of Anser cygnoides with 18 samples.

Results

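The goose genome carries long noncoding RNA (lncRNA) loci that lie well away from any protein-coding gene, and their level, tissue pattern and response to high-intake feeding were examined here. Of the 1701 lncRNA loci in the expression table, 643 (37.8%) had no protein-coding gene of the AnsCyg_PRJNA183603_v1.0 annotation overlapping them or within 10 kb on the same scaffold. These are called distant loci. Of the others, 571 lay within 10 kb of such a gene without touching it and 487 overlapped one. The choice used position alone and no expression value. The libraries came from Tianfu geese, males of a closed meat breed crossed from Anser anser and Anser cygnoides, at 145 days of age. In the control group 3 geese ate freely, and in the high-intake group 3 geese were force-fed the same diet from 126 days of age, with meals of 130 g on the first day and 5 g more on each later day. All geese had free water and went without feed overnight before they were killed. Liver, abdominal adipose (AF) and subcutaneous adipose (SF) of each goose gave 18 RNA-seq libraries, 3 for each tissue and feeding group, named C1 to C3 for the control geese and T1 to T3 for the high-intake geese.

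LncRNAs are transcripts longer than a short cutoff that hold no clear protein-coding frame. Loci far from genes are often called intergenic lncRNAs, and in mammals as a class they are known for low levels and narrow tissue patterns. Some act on neighbouring genes and some act elsewhere in the cell, and for most of them no role is known. No role has been given to any of the loci named here, so the nearest protein-coding gene is named only to place each locus.

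The distance to the nearest protein-coding gene could be given for 642 distant loci and had a median of 40.2 kb, with quartiles of 19.7 and 89.8 kb. It passed 50 kb for 281 loci and 100 kb for 136 loci and reached 1054.8 kb. The remaining locus lay on a scaffold that carried no protein-coding gene. Just outside the limit were XLOC_030591 at 9804 bases from MON2, XLOC_069864 at 9863 bases from CCDC63 and XLOC_034059 at 9918 bases from SLC38A4. Just inside it were XLOC_126583 at 10006 bases from APCDD1, XLOC_256647 at 10078 bases from RPGR and XLOC_209644 at 10125 bases from SLCO2A1. When annotated genes of every kind were counted as neighbours, 496 distant loci still had none within 10 kb. Of the 643, 44 (6.84%) overlapped a RefSeq lncRNA gene, beside 13 (1.23%) of the 2 other classes together. The distant loci spanned a median of 4.32 kb, beside 3.15 kb for loci within 10 kb of a gene and 2.15 kb for overlapping ones, and ranged from 493 bases to 143.2 kb. They were spread over 219 scaffolds with at most 19 on any of them, and 79 of them sat within 10 kb of another distant locus, in 38 groups of at most 3.

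C2-SF, the subcutaneous adipose library of control goose 2, stood apart from the other libraries. The FPKM of its protein-coding genes summed to 107522, against 221093 to 438339 elsewhere, and the FPKM of the distant loci summed to 375, against 140 to 223 elsewhere. The main results that rest on it are given with and without it where both were computed. Others are given only with it, among them some overlaps of calls, nearest-gene shares and fits over all 18 libraries. The summed markers went with the tissue labels, though not every listed gene did. The 10 of 12 listed hepatocyte genes in the table summed to 16879 to 29420 FPKM in liver and 116 to 3165 FPKM in adipose. Among them CPS1 was not higher in liver, at 0.0160 to 0.132 FPKM against 0.0274 to 0.170 in adipose. The 5 of 8 listed adipocyte genes in the table summed to 63.9 to 123 FPKM in liver and 702 to 3430 FPKM in adipose, with the lowest adipose value in C2-SF. Of the skin keratinocyte list, 6 of 10 genes were found. Their sum was 51.6 FPKM in C2-SF and 22.4 to 189 FPKM over the adipose libraries, most of it from PPL. TP63 (0.784 FPKM) and GRHL3 (0.180 FPKM) had their highest values in C2-SF, both below 1 FPKM. PPL, DSP, EVPL and DSG2 had theirs elsewhere, at 188 FPKM in T3-SF, 7.35 in T1-liver, 1.64 in C1-AF and 1.17 in T1-liver. None of 7 listed erythrocyte genes was found. A value listed at 0 need not mean absence, since ALB, which encodes the main protein made by hepatocytes, was listed at 0 in every liver except T2-liver, where it was 9870.5 FPKM. FGG and TF were listed at 0 in T2-liver and in no other liver. The hepatocyte sums, highest in T2-liver, thus do not rest on the same genes in every liver. The files hold no read counts, so the depth behind a value is unknown.

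Most distant loci were barely expressed. The share of them at 0.1 FPKM or more was 32.9% ± 10.6 (SD, n = 17) without C2-SF, lowest at 23.3% and highest at 67.7%, and 95.2% in C2-SF. Over the same 17 libraries the share was 59.8% ± 10.3 for loci within 10 kb of a gene and 66.3% ± 10.7 for overlapping loci. The median FPKM of the distant loci averaged 0.036 ± 0.038 (SD, n = 17) without C2-SF and 0.058 ± 0.10 (SD, n = 18) with it, beside 0.11 ± 0.055 (SD, n = 17) for all lncRNAs. The livers held the fewest, at 24.3% ± 1.48 (SD, n = 3) in control geese and 25.3% ± 0.778 in high-intake geese. In abdominal adipose the share was 35.7% ± 6.15 in control and 34.1% ± 2.16 in high-intake geese, and 30.8% ± 1.65 were found in the high-intake SF libraries. The liver values did not overlap those of either adipose tissue. This was not particular to the distant loci. For all lncRNAs the share was 37.9% to 43.1% in liver and 50.8% or more in adipose, and the 2 other classes were separate too. The control subcutaneous adipose libraries did not form a tight group, with 40.7% of the distant loci in C1-SF, 95.2% in C2-SF and 67.7% in C3-SF.

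**Figure D1:**
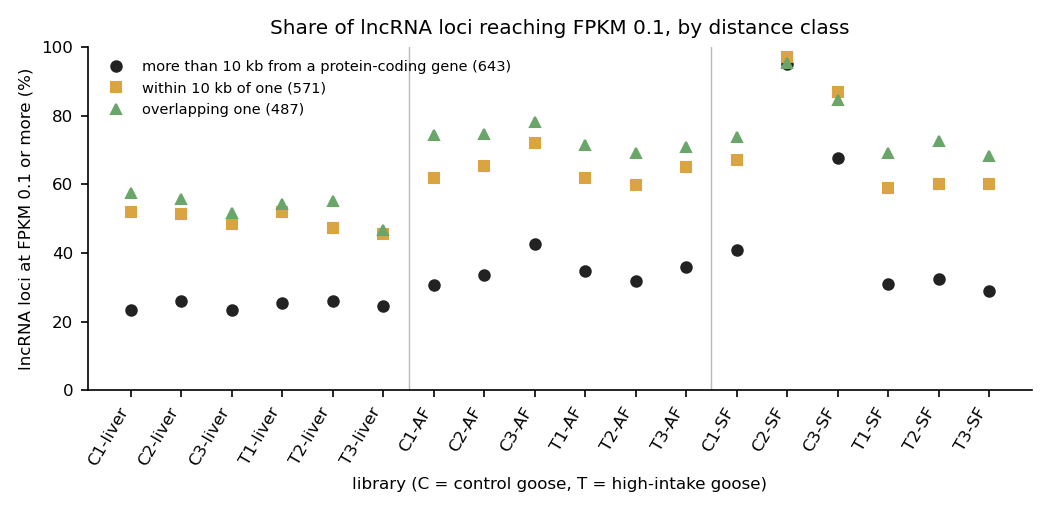
Percent of lncRNA loci at an FPKM of 0.1 or more in each of the 18 libraries, for the 643 distant loci (circles), the 571 within 10 kb of a protein-coding gene (squares) and the 487 overlapping one (triangles). The distant loci lie lowest in every library, between 23.3% and 67.7%, except that in C2-SF they reach 95.2% and the 3 classes nearly meet.

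Few distant loci were expressed at a sizeable level or everywhere. A mean of at least 1 FPKM over the 18 libraries was seen for 25 (3.89%) of them, against 72 (12.6%) of those within 10 kb of a gene and 105 (21.6%) of those overlapping one. An FPKM of 0.1 in all 18 libraries was reached by 35 (5.44%), against 121 (21.2%) of the 571 and 146 of the 487. The level also varied with position and length inside the set. Without C2-SF, a mean above 0.1 FPKM was seen for 50.3% of the 167 distant loci up to 20 kb from a gene and for 33.1% of the 136 beyond 100 kb. It was seen for 55.5% of the loci longer than the median and for 33.2% of the shorter ones.

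Loci that were silent elsewhere had values in C2-SF, and most of the well-expressed ones were lower there. This held for lncRNAs of every class. There were 60 distant loci (9.33%) below 0.1 FPKM in all 17 other libraries, against 2.45% of loci within 10 kb of a gene and 2.87% of overlapping loci, and in C2-SF their median was 0.319 FPKM and their highest value 1.74 FPKM. In all, 355 distant loci (55.2%) had their highest value in C2-SF, against 35.6% of loci within 10 kb of a gene and 28.5% of overlapping loci. Of the 278 distant loci below 0.1 FPKM on average in C1-SF and C3-SF, 261 were higher in C2-SF, with a median difference of 1.39 on log2(FPKM + 0.1), beside 451 of 480 and 1.39 for all lncRNAs. Of the 24 at 1 FPKM or more there, 17 were lower in C2-SF, with a median difference of -0.66, beside 150 of 206 and -0.45 for all lncRNAs. These shares of the distant loci lie near those of all lncRNAs. C3-SF moved the same way to a lesser degree. Among 151 distant loci below 0.1 FPKM in the 15 libraries other than control subcutaneous adipose, 99.3% reached it in C2-SF, 55.6% in C3-SF and 13.9% in C1-SF, beside 99.6%, 61.0% and 13.8% of the 246 such lncRNAs of all classes.

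**Figure D2:**
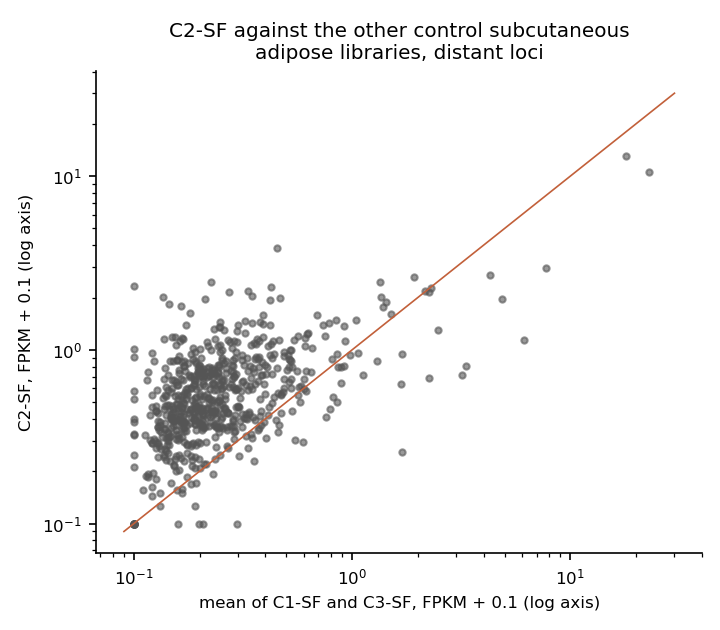
FPKM + 0.1 of the 643 distant loci in C2-SF against the mean of C1-SF and C3-SF, both on log axes, one point per locus, with the line of equal values. Loci low in C1-SF and C3-SF lie above the line, as 261 of the 278 below 0.1 FPKM do, and 17 of the 24 loci at 1 FPKM or more lie below it.

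The 5 loci with the widest gap between C2-SF and its partners show what this looks like at single loci. XLOC_322403, 27.5 kb from HSPA14, was at 2.24 FPKM in C2-SF, at 0.145 in C3-AF and listed at 0 in the 16 other libraries. XLOC_325284, 67.2 kb from ADCY8, was at 1.74 FPKM in C2-SF and at most 0.0888 elsewhere, and XLOC_296581, 31.4 kb from DUSP26, was at 2.35 FPKM in C2-SF and at most 0.158 elsewhere. XLOC_294305, 16.4 kb from EZR, stood at 1.92 FPKM in C2-SF and at no more than 0.132 in any other library. XLOC_253563, 62.3 kb from NAMPT, differed from these in that it also had a liver level of 0.203 to 0.494 FPKM, against 0.905 FPKM in C2-SF and at most 0.0715 in the other adipose libraries. All 5 are short, between 493 and 1726 bases.

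The most abundant distant loci were found in all 3 tissues. XLOC_097908 (NW_013185675.1:926863-935534, 15.3 kb from TM2D1) had the highest mean, 16.3 FPKM. It was at 10.6, 13.4 and 11.8 FPKM in control livers, at 6.73, 5.65 and 8.28 in high-intake livers, and between 9.93 and 29.0 in the 12 adipose libraries. Its liver groups did not overlap, but the feeding difference of -0.80 ± 0.32 (SE) on log2(FPKM + 0.1) missed the threshold (limma, adjusted p = 0.232). XLOC_352146 (NW_013185977.1:118323-122129, 23.2 kb from SCRIB, a cell polarity gene) averaged 5.99 ± 1.65 FPKM (SD, n = 6) in liver and 18.4 ± 2.94 (SD, n = 12) in adipose. SCRIB itself showed the same order, with 4.36 to 7.79 FPKM in liver and 9.21 to 26.9 FPKM in adipose. XLOC_277621 (NW_013185795.1:1105062-1129064, 26.1 kb from ZFAT) was level across tissues, with means of 7.94 FPKM in liver, 7.36 in abdominal and 6.06 in subcutaneous adipose. XLOC_023549, 24968 bases from a gene annotated as transmembrane protein 189-like, ranged from 0.707 FPKM in C2-SF to 13.1 FPKM in T2-liver. No other distant locus reached a mean of 10 FPKM besides XLOC_097908 and XLOC_352146.

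To describe tissue pattern, a tissue was called leading where its mean FPKM + 0.1 was at least 4 times that of both other tissues, and the adipose tissues were called leading together where both were at least 4 times liver. Of the 543 distant loci that reached a mean of 0.1 FPKM in some tissue, 34 (6.26%) were led by liver, 27 (4.97%) by both adipose tissues, 1 by subcutaneous adipose and none by abdominal adipose. For all lncRNAs the shares ran the other way, with 61 of 1538 (3.97%) led by liver and 146 (9.49%) by both adipose tissues. The order among the distant loci depended on the setting. At 2 times, 63 were led by liver and 128 by both adipose tissues, beside 134 and 455 of all lncRNAs. In control geese alone, 19 and 35 were, beside 43 and 141 of all lncRNAs, and without C2-SF the distant loci gave 24 and 21 there. Without C2-SF, the distant loci reaching 0.1 FPKM dropped to 392, of which 38 (9.69%) were led by liver and 27 (6.89%) by both adipose tissues, beside 5.39% and 10.7% of all lncRNAs. The tau index, which is 0 for equal levels in all tissues and 1 for a single tissue, had a median of 0.706 over the distant loci and 0.549 over all lncRNAs, and 0.628 and 0.501 without C2-SF. The distant loci were also lower in level than the other classes, and the part of level in tau was not tested.

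**Figure D3:**
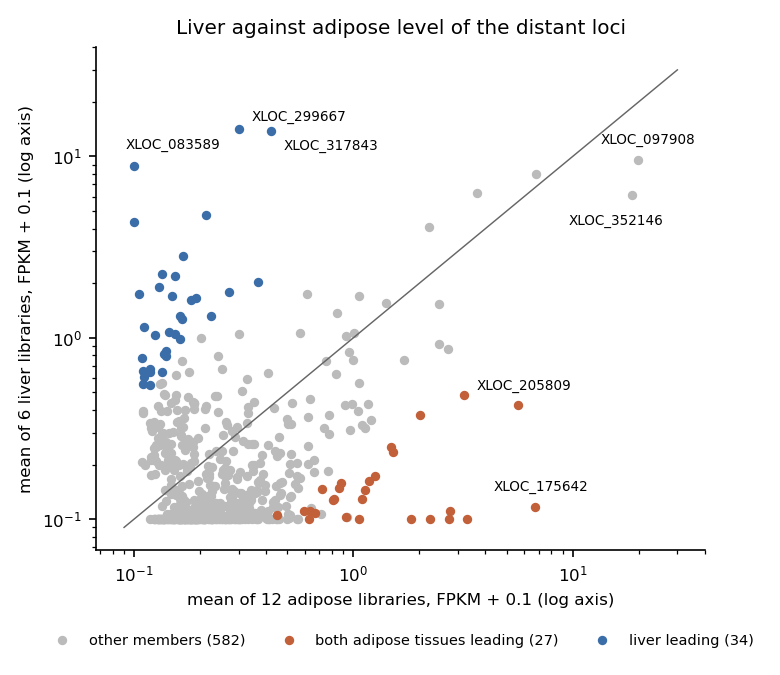
Mean FPKM + 0.1 of the 643 distant loci over the 6 liver libraries against that over the 12 adipose libraries, both on log axes, with the line of equal values. Blue points are the 34 loci led by liver, orange points the 27 led by both adipose tissues, and most of the remaining 582 lie below 1 FPKM in both.

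The loci led by liver included some of the most abundant distant loci. XLOC_299667 (NW_013185827.1:681048-682480, 25.6 kb upstream of DIO2, the enzyme that activates thyroid hormone) was between 4.27 and 32.7 FPKM in the 6 livers and at most 0.704 in adipose. DIO2 was also higher in every liver, at 13.0 to 285 FPKM, than in any adipose library, at 0.317 to 3.12 FPKM. XLOC_317843 (NW_013185857.1:378147-380891, 15.0 kb upstream of ANGPTL4, an inhibitor of lipoprotein lipase) was at 12.9, 4.95 and 0.824 FPKM in control livers and 29.2, 18.7 and 15.2 in high-intake livers, against at most 0.934 in adipose. ANGPTL4 was at 28.7, 7.08 and 2.94 FPKM in control and 31.4, 22.1 and 17.6 in high-intake livers, so its groups overlapped through C1-liver while those of the lncRNA did not. XLOC_332502, 19.9 kb upstream of PTH1R, the receptor of parathyroid hormone, was at 1.12 to 11.6 FPKM in liver and at most 0.167 in adipose other than C2-SF, where it was at 0.690. PTH1R itself was at 9.34 to 25.2 FPKM in liver and 0.732 to 3.02 in adipose. XLOC_091436, 94.5 kb from PREP, was at 25.4 FPKM in T2-liver and listed at 0 in the 17 other libraries, so its place among the liver loci rests on that library.

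The named loci led by both adipose tissues were low in liver or listed at 0 there. XLOC_175642 (NW_013185710.1:4431907-4433131, 12.5 kb upstream of CTIF and 89 bases from a RefSeq lncRNA gene) was at most 0.052 FPKM in liver and 1.13 to 15.2 FPKM in adipose. XLOC_311239 (NW_013185845.1:1525393-1572042, 67.7 kb from an uncharacterized gene) was listed at 0 in all 6 livers and was at 0.61 to 9.03 FPKM in adipose. XLOC_203470 (NW_013185726.1:145933-153545, 26.2 kb upstream of INSIG1, a brake on sterol synthesis) was at most 0.0347 FPKM in liver and 0.387 to 6.38 in adipose, while INSIG1 was plentiful in both, at 49.3 to 141 FPKM in liver and 60.6 to 229 in adipose. XLOC_205809 (NW_013185728.1:69482-97994) was at 0.0811 to 0.658 FPKM in liver and 2.60 to 10.4 in adipose, and its nearest gene RP1, known from photoreceptors in mammals, stayed at or below 0.367 FPKM in all libraries.

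Other adipose loci were on in some geese and off in others. XLOC_273042, 129.5 kb from a relaxin receptor 1-like gene, was at 14.5 FPKM in T2-AF and 8.72 FPKM in T2-SF, and at most 0.476 FPKM in both depots of T1 and T3. In the control geese it was at 3.62, 2.36 and 0.0343 FPKM in AF and at 0.612, 0.894 and 0.223 FPKM in SF. XLOC_307678, 24.9 kb upstream of S1PR3, was at 5.65 FPKM in T3-AF and 2.72 FPKM in T3-SF. In the depots of T1 and T2 it was at most 0.327 FPKM, although S1PR3 itself was at 28.5 to 98.8 FPKM in all adipose libraries. The feeding differences of XLOC_307678 on log2(FPKM + 0.1) were -1.55 in AF and -1.50 in SF, or -1.19 in SF without C2-SF. The control geese were thus higher on average on that scale, and none of these differences passed. Both loci were listed at 0 in every liver. XLOC_049405 (NW_013185662.1:857780-877088, 157.1 kb from COL12A1, a fibril-associated collagen) was the locus led by subcutaneous adipose, with 1.15, 2.07 and 2.98 FPKM in control SF and 0.0673, 0.492 and 2.70 in high-intake SF, against at most 0.125 in AF and 0.00824 in liver.

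Tests between tissues were made within each feeding group on log2(FPKM + 0.1), over all lncRNAs with a mean above 0.1 FPKM in the libraries compared. They treated the libraries as unpaired, although the same geese gave both tissues. These are bulk samples, in which fewer cells of a type and less RNA per cell cannot be told apart. In control geese, 156 of the 250 distant loci tested differed between liver and abdominal adipose (limma, adjusted p under 0.05), beside 56.6% of all lncRNAs tested. Of these, 52 were higher and 104 lower in liver, where all lncRNAs gave 12.3% higher and 44.4% lower. In high-intake geese 146 of 252 differed, 50 higher and 96 lower in liver, beside 53.9% of all lncRNAs (11.7% higher and 42.2% lower). The median difference was -0.64 over the distant loci and -0.93 over all lncRNAs tested in control geese, and -0.69 and -0.91 in high-intake geese, so the whole table lay lower in liver. With each library centred on its lncRNA median, the split was 83 higher and 56 lower in control and 67 higher and 32 lower in high-intake geese. Centred on the protein-coding median, it was 66 higher and 69 lower in control and 63 higher and 46 lower in high-intake geese. Centring moves every lncRNA tested by the same amount, and the calls of all lncRNAs under it are not given here. Centred on the lncRNA median, the median difference was 0.15 over the distant loci and -0.13 over all lncRNAs in control geese. In high-intake geese it was 0.09 and -0.14. The feeding groups share no goose. Of 179 distant loci tested in both, 89 were called in both, 26 higher and 63 lower in liver and none in opposite directions. They made up 57.1% of the control calls and 61.0% of the high-intake calls, beside 64.8% and 69.4% over all lncRNAs, of which 871 were tested in both. Against subcutaneous adipose, 221 were tested and 83 called in both, 15 higher and 67 lower in liver and 1 in opposite directions. The 83 made up 43.2% of the control calls and 61.5% of the high-intake calls. Over all lncRNAs, 943 were tested and 293 called in both, which made up 53.9% and 60.3% of the calls. The control calls of this overlap include C2-SF, and the overlap was not computed without it.

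Against subcutaneous adipose, the control comparison depended on C2-SF. With it, 192 of 484 distant loci were called, 22 higher and 170 lower in liver, beside 38.2% of all lncRNAs (4.35% higher and 33.8% lower). Without it, 273 were tested and 129 called, 31 higher and 98 lower, beside 422 of all 1065 lncRNAs, 80 higher and 342 lower. The count was 72, 77 and 77 without C1-, C2- and C3-liver, 300 without C1-SF and 91 without C3-SF. Centring on the lncRNA median gave 66 higher and 27 lower with all 6 libraries, and centring on the protein-coding median gave 13 and 19. In high-intake geese 135 of 253 were called, 55 higher and 80 lower in liver, beside 48.8% of all (11.8% higher and 36.9% lower). After centring on the lncRNA median, 75 were higher and 38 lower, with a median difference of 0.008 beside -0.15 over all lncRNAs. Between the adipose depots almost nothing was called. In control geese 1 of 483 passed, beside 0.209% of all lncRNAs (0.0696% higher and 0.139% lower in AF). It was XLOC_049405, with a difference of -3.30 ± 0.42 (SE, limma, adjusted p = 0.0134), which kept its call in 2 of 6 fits that each left out a library. Its AF values were low, and it met the filter on low values only through control SF. Its p-value is therefore no support for its direction. With the goose as a block 5 passed, 6 did without C1-SF, 2 without C2-SF and none without C3-SF or any of C1-, C2- and C3-AF. In high-intake geese none of 217 passed and none of all 953 lncRNAs did (0%), with 9 distant loci and 42 of all lncRNAs under an unadjusted p of 0.05.

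The tissue tests of 4 named loci follow. XLOC_299667, XLOC_175642 and XLOC_091436 were named in part for their ratio between liver and adipose in these same libraries. Their tests therefore describe the size and error of the difference and are no independent support for it. XLOC_299667 was higher in liver than in abdominal adipose by 5.73 ± 0.58 (SE) on log2(FPKM + 0.1) in control geese (limma, adjusted p = 0.0004) and by 5.45 ± 0.90 in high-intake geese (adjusted p = 0.0034). XLOC_175642 differed by -4.37 ± 0.47 in control geese (limma, adjusted p = 0.0004) and by -6.08 ± 0.41 in high-intake geese (adjusted p = 0.0002). XLOC_277621, the even one, did not pass in either, with 0.32 ± 0.24 in control and -0.35 ± 0.34 in high-intake geese. XLOC_091436, listed at 0 outside T2-liver, did not pass in high-intake geese (limma, adjusted p = 0.285).

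The direction of the nearest protein-coding genes was set beside that of the loci. In control geese, 94 of the loci lower in liver than in abdominal adipose had a nearest gene that was tested, and 65 of these genes (69.1%) were lower too, against 43.5% of all protein-coding genes tested. Of the loci higher in liver, 48 had such a gene and 16 of these (33.3%) were higher too, against 19.0% of all, while 22.9% were lower. Near loci not called, 23.6% of 89 genes were higher and 39.3% lower. In high-intake geese the shares with the same direction were 66.7% of 87 against 41.7%, and 36.2% of 47 against 14.3%. Near loci not called there, 17.0% of 100 genes were higher and 44.0% lower. In high-intake geese 34.0% of the 47 genes near loci higher in liver were lower there. Against subcutaneous adipose in control geese, 75 of 151 genes near loci lower in liver (49.7%) were lower too, against 23.5% of all. Both shares come from fits with C2-SF and were not computed without it. In high-intake geese, which do not involve C2-SF, 50 of 69 such genes (72.5%) were lower too, against 41.3% of all. Of 51 genes near loci higher in liver there, 35.3% were higher and 31.4% lower, against 15.9% and 41.3% of all. Near loci not called, 55 of 110 genes were lower. These are descriptions of shared direction, since the genes and the lncRNAs come from the same libraries. Of 8 groups of neighbouring distant loci with at least 2 members tested in the control comparison of liver and abdominal adipose, 7 had the same sign throughout and in 3 all tested members were called the same way. In high-intake geese 8 of 11 had the same sign, and between the depots of control geese 13 of 24. For feeding it was 10 of 10 in liver, 6 of 10 in AF and 14 of 20 in SF. The median difference between liver and AF was below 0, which by itself favours shared signs. No share over all lncRNAs was computed.

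Few distant loci were called between the feeding groups in liver. Of 200 tested, 4 (2%) passed, 2 higher and 2 lower in high-intake geese, beside 1.23% of all 812 lncRNAs tested (0.739% higher and 0.493% lower). The median change was -0.18 over the distant loci and -0.29 over all lncRNAs, and 0.02 over the distant loci after centring on the lncRNA median. Each of the 4 calls was lost with a pseudocount of 1. The number of distant loci called was 0 without C1-liver or C3-liver, 1 without T1-liver and 2 without T3-liver. An exact permutation test of 3 geese against 3 cannot give a p below 0.1 for a single locus. The summed level of the 7 lymphocyte markers, all found, was 34.3 to 42.1 FPKM in control livers and 14 to 23.2 in high-intake livers, and that of 5 of 8 skeletal muscle markers was 83.5, 8.97 and 81.6 FPKM in C1-, C2- and C3-liver and 1.27 to 12.5 in high-intake livers. The 2 of 5 smooth muscle markers found summed to 9.79 to 16.8 FPKM in control and 5.26 to 5.62 FPKM in high-intake livers. Their part in the calls was not tested.

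The clearest pattern was a locus seen only in high-intake livers. XLOC_083589 (NW_013185670.1:6138915-6140524, 52.7 kb downstream of SENP5, which encodes a SUMO protease) was at 40.9, 3.36 and 8.60 FPKM in T1-, T2- and T3-liver and listed at 0 in the other 15 libraries, C2-SF included (limma, adjusted p = 0.0229). No fold is given against values listed at 0. SENP5 stood at 17.5 to 19.7 FPKM in control and 18.2 to 23.0 FPKM in high-intake livers, a change of 0.14 ± 0.16 (SE) on log2(FPKM + 1) that did not pass (limma, adjusted p = 0.613). XLOC_194743 (NW_013185721.1:3540660-3553005, 50.3 kb upstream of SNTB1, a syntrophin of the dystrophin complex) was listed at 0 in the 3 control livers and was at 1.10, 1.25 and 0.386 FPKM in T1-, T2- and T3-liver (limma, adjusted p = 0.0346). In adipose it was at most 0.201 FPKM, in C2-SF. With the control livers listed at 0, XLOC_083589 and XLOC_194743 passed the filter on low values only through the high-intake livers. This fixes their direction, so their p-values are no support for it. SNTB1 rose as well, from 2.32, 2.96 and 4.35 FPKM in control livers to 11.8, 22.9 and 15.5 in high-intake livers, by 2.05 ± 0.28 (SE) on log2(FPKM + 1) with an adjusted p of 0.0291. In both adipose depots SNTB1 was at 7.71 FPKM or more in either feeding group, and its change there did not pass.

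The other called loci were lower in high-intake livers. XLOC_104568 (NW_013185678.1:267523-277063, 10.5 kb downstream of GALK2, a sugar kinase) fell from 5.86, 9.13 and 6.36 FPKM in control livers to 0.552, 1.44 and 0.571, by 3.01 ± 0.43 (SE) on log2(FPKM + 0.1) with an adjusted p of 0.0346. Its liver groups were well apart. In abdominal adipose it went from 2.83, 0.760 and 1.24 FPKM to 0.636, 0.592 and 0.486, which did not pass (limma, adjusted p = 0.303), and in subcutaneous adipose the groups overlapped, at 8.23, 1.04 and 3.77 FPKM against 3.78, 1.28 and 0.722. GALK2 changed by -0.31 ± 0.15 in liver (limma, adjusted p = 0.266). XLOC_354611 (NW_013186003.1:328718-330974, 13.0 kb downstream of COG6, a Golgi transport gene) fell from 5.30, 2.02 and 3.75 FPKM to 0.526, 0.276 and 0.609, by 2.68 ± 0.45 with an adjusted p of 0.0422. It was led by liver and was at most 0.299 FPKM in adipose. COG6 was at 8.33 to 9.18 FPKM in control livers and 4.69 to 7.02 in high-intake livers, a change of -0.59 ± 0.19 that missed the threshold (limma, adjusted p = 0.118).

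**Figure D4:**
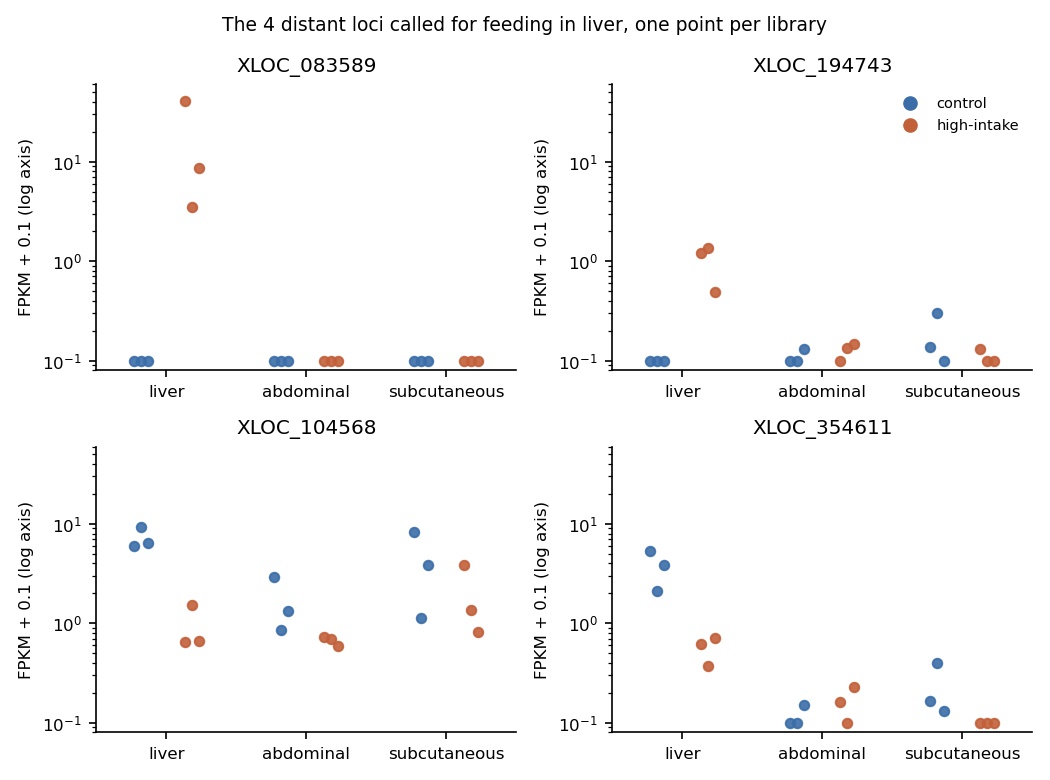
FPKM + 0.1 on a log axis of the 4 distant loci called for feeding in liver, in liver, abdominal and subcutaneous adipose, with 1 point per library, control geese in blue and high-intake geese in orange. XLOC_083589 is above the floor only in the 3 high-intake livers (3.36 to 40.9 FPKM), and the liver groups of all 4 loci do not overlap.

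Some other named loci missed the threshold in liver although their groups did not overlap. XLOC_013534 and XLOC_261479 were named for a small p among loci with a mean above 1 FPKM in liver, which favours groups that do not overlap. XLOC_317843 and XLOC_277621 were named for level or tissue ratio, so these are not the next loci by p. XLOC_013534 (48.6 kb upstream of CPEB2, an RNA-binding protein gene) was at 0.738, 0.475 and 0.417 FPKM in control and 3.14, 1.62 and 3.70 in high-intake livers, a difference of 2.14 ± 0.41 (SE, limma, adjusted p = 0.0683). XLOC_261479 (73.6 kb upstream of STARD4, a sterol carrier) was at 2.58, 4.12 and 1.13 FPKM in control and 0.496, 0.242 and 0.189 in high-intake livers, a difference of -2.63 ± 0.52 (limma, adjusted p = 0.0773). STARD4 itself was at 2.57 to 3.11 FPKM in control and 2.49 to 2.70 FPKM in high-intake livers. XLOC_317843 near ANGPTL4 gave 2.37 ± 0.90 (limma, adjusted p = 0.216) and ANGPTL4 1.29 ± 0.67 (adjusted p = 0.281), with C1-liver and C3-liver far apart for both. XLOC_277621, the even locus, was at 10.9, 11.5 and 11.3 FPKM in control and 5.43, 2.96 and 5.47 in high-intake livers, a difference of -1.32 ± 0.36 that did not pass (limma, adjusted p = 0.117).

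In abdominal adipose none of the 240 distant loci tested passed, beside 0.393% of all 1019 lncRNAs (0.0981% higher and 0.294% lower), and 37 of the 240 and 142 of the 1019 had an unadjusted p under 0.05. The median change was -0.19 over the distant loci and -0.24 over all. The 5 leading loci follow, named for the smallest p among those with a mean above 1 FPKM there. Their groups did not overlap, but choosing by p favours such groups, so this is no support for a response. XLOC_311239 was at 1.39, 1.61 and 0.610 FPKM in control and 4.35, 4.01 and 3.23 in high-intake AF, a difference of 1.69 ± 0.39 (SE, limma, adjusted p = 0.160). XLOC_175642 was at 4.06, 1.13 and 2.38 FPKM in control and 4.58, 11.6 and 8.51 in high-intake AF, a difference of 1.74 ± 0.52 (limma, adjusted p = 0.232). XLOC_238614 (13.9 kb upstream of WBSCR27) was at 0.329, 0.571 and 0.565 FPKM in control and 2.13, 1.07 and 2.99 in high-intake AF, a difference of 1.80 ± 0.42 (limma, adjusted p = 0.160). In the other direction, XLOC_098178 (43.9 kb downstream of PPAP2B, a lipid phosphatase) was at 8.13, 5.40 and 3.60 FPKM in control and 1.81, 0.147 and 0.694 in high-intake AF, a difference of -2.94 ± 0.69 (limma, adjusted p = 0.160). XLOC_091181 (21.4 kb upstream of SESN1, a stress-response gene) was at 2.33, 5.28 and 8.29 FPKM in control and 1.72, 1.11 and 1.66 in high-intake AF, a difference of -1.61 ± 0.47 (limma, adjusted p = 0.214).

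In subcutaneous adipose none of the 453 distant loci tested passed and none of all 1373 lncRNAs did (0%), with 94 of the 453 and 221 of the 1373 under an unadjusted p of 0.05. The median change was -0.90 over the distant loci and -0.44 over all lncRNAs, and without C2-SF, where 260 distant loci were tested and none passed, it was -0.14 over the distant loci and -0.09 over all. Of the 453 loci, 195 passed the filter on low values only with C2-SF, a control library, which favours lower values in high-intake geese. Of these 195, 193 were lower and 2 higher in high-intake geese, so their direction is no support for a response. The 258 loci tested either way had a median of -0.38 with all 6 libraries. Without C1-SF, which leaves the other control libraries C2-SF and C3-SF, 6 of 476 distant loci passed, all of them lower. The median change in that fit was -1.29 over the distant loci and -0.63 over all lncRNAs. The calls of all lncRNAs in that fit are not given here, and the part of C2-SF in the 6 was not tested. The loci with the smallest p included some of those leading in abdominal adipose, from other libraries of the same geese. XLOC_175642 was at 4.39, 1.85 and 5.09 FPKM in control and 9.38, 15.2 and 11.5 in high-intake SF, a difference of 1.73 ± 0.49 (SE, limma, adjusted p = 0.264), and 1.30 ± 0.36 without C2-SF (adjusted p = 0.478). XLOC_311239 was at 1.79, 2.06 and 2.51 FPKM in control and 9.03, 4.12 and 3.74 in high-intake SF, a difference of 1.26 ± 0.45 (limma, adjusted p = 0.282), and 1.25 ± 0.47 without C2-SF (adjusted p = 0.500). Its nearest gene, LOC106045240, went the other way, from 0.476, 3.53 and 2.07 FPKM to 0.214, 0.161 and 0.140, with C2-SF the highest. XLOC_098178 was at 3.28, 2.18 and 1.14 FPKM in control and 1.06, 0.210 and 0.692 in high-intake SF, a difference of -1.69 ± 0.56 (limma, adjusted p = 0.264), and -1.64 ± 0.67 without C2-SF (adjusted p = 0.511). C2-SF was the middle value of its group for XLOC_311239 and XLOC_098178 and the lowest for XLOC_175642.

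**Figure D5:**
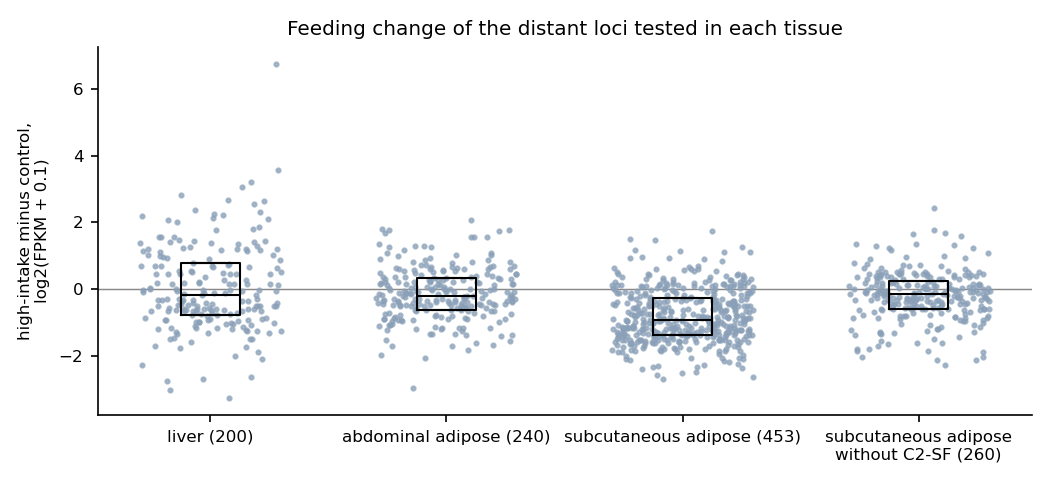
Difference between high-intake and control geese on log2(FPKM + 0.1) for each distant locus tested, in liver (200), abdominal adipose (240), subcutaneous adipose (453) and subcutaneous adipose without C2-SF (260), with a box for the quartiles and a line at the median. The medians are -0.18, -0.19, -0.90 and -0.14. The last 2 cover different sets of loci, and the 258 loci tested either way had a median of -0.38 with all 6 libraries.

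Whether a locus responded to feeding differently in liver and in adipose was tested with the interaction. Against abdominal adipose, 3 of 274 distant loci passed, 2 higher and 1 lower, beside 1.41% of all 1063 lncRNAs (0.941% higher and 0.47% lower). They were XLOC_083589 (limma, adjusted p = 0.00435), XLOC_194743 (adjusted p = 0.0207) and XLOC_354611 (adjusted p = 0.0232). Against subcutaneous adipose, 3 of 363 passed, all higher, beside 0.888% of all 1239 (0.646% higher and 0.242% lower). They were XLOC_083589 (limma, adjusted p = 0.00606), XLOC_098172 (adjusted p = 0.0167) and XLOC_194743 (adjusted p = 0.0240). In both interactions, XLOC_083589 and XLOC_194743 passed the filter on low values only through the high-intake livers. XLOC_098172 passed it only through control SF, C2-SF included. This fixes the direction of these loci, so their p-values and calls are no support for it. In the 12 fits of each interaction that left out a library, XLOC_194743 passed in 7 and 5, and XLOC_354611 in 5 against abdominal adipose. XLOC_083589 was listed at 0 in all 12 adipose libraries, so its interaction only restates the difference in liver, whose call was lost without C1-, C3- or T3-liver. With a pseudocount of 1, 2 loci passed against abdominal adipose, none higher and 2 lower. The number of distant loci called against abdominal adipose was 1 without C1-liver, C3-liver, C3-AF or T1-AF, 6 without C2-, T1- or T3-liver and 10 without T2-liver. Against subcutaneous adipose it was 1 without C1- or C3-liver, 10 without T2-liver, 42 without C1-SF and 3 of 267 without C2-SF. The fit without C1-SF leaves the control SF libraries C2-SF and C3-SF, and 41 of its 42 calls were higher. The median in that fit was 0.67 over the distant loci and 0.26 over all lncRNAs. The calls of all lncRNAs in the fits that left out a library are not given here, and the part of C2-SF in the 42 was not tested. XLOC_098172, 21.5 kb downstream of PPAP2B on the same scaffold as XLOC_098178, fell outside the naming rule and is given because it was called here. It was listed at 0 in control livers and was at 0.0740, 0.0795 and 0.112 FPKM in high-intake livers, whereas in SF it was at 0.598, 0.950 and 0.422 FPKM in control and 0.110, 0 and 0.0593 in high-intake geese, so all of its values lay below 1 FPKM.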

How the data were processed

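RNA-seq of ribosomal RNA-depleted total RNA was analysed from liver, abdominal and subcutaneous adipose of 3 control and 3 high-intake geese, 18 libraries. The authors mapped reads with Bowtie2 and TopHat2, assembled transcripts and estimated FPKM (fragments mapped to a transcript, scaled to its length and to the mapped total) with Cufflinks 2.1.1, and kept unannotated multi-exon transcripts of low coding potential as lncRNAs. The deposited tables hold log2 values, taken here as log2(FPKM + 1) because none is below 0, since the sources used here do not name the scale. FPKM was recovered from them and the depth of the libraries is unknown.

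Distance to protein-coding genes was computed from the deposited annotation, and so depends on what that annotation holds. The loci, lists and naming rule were chosen with earlier results of these data known. Named loci were those called for feeding, the 5 of smallest p in each tissue with a mean above 1 FPKM, the 8 most abundant, the 5 of largest ratio for liver and for adipose, and the 5 of widest C2-SF gap. Tests were two-sided, with limma 3.58.1 (R 4.3.3, empirical Bayes with trend) on log2(FPKM + 0.1) for lncRNAs with a mean above 0.1 FPKM in the libraries compared, and on log2(FPKM + 1) for protein-coding genes. P-values were adjusted by Benjamini and Hochberg over all lncRNAs tested, with a threshold of 0.05. The fitting was tested on simulated data. Each replicate is a separate goose. The same 3 geese gave the tissues of a feeding group, so the tissue libraries are paired by goose. Deviations of libraries of the same goose correlated at 0.096 to 0.47 (17 of 18 pairs over 0.1). The main tissue and interaction tests did not use this pairing, and the goose as a block was an alternative. Alternatives were the pseudocount, the filter, centring, a joint fit, the goose block and leaving out each library.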

Additional observations from a re-analysis of the deposited data

Results flagged for a closer look

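The following loci are given because they passed the test of a feeding difference that differs between liver and adipose, the interaction (limma on log2(FPKM + 0.1), adjusted over all lncRNAs tested). Against abdominal adipose, the feeding difference in liver exceeded that in adipose by 6.75 ± 0.91 (SE, adjusted p = 0.00435) for XLOC_083589 and by 3.00 ± 0.56 (adjusted p = 0.0207) for XLOC_194743, and for XLOC_354611 the value was -3.11 ± 0.60 (adjusted p = 0.0232). Against subcutaneous adipose it was 6.75 ± 0.90 (adjusted p = 0.00606) for XLOC_083589, 3.76 ± 0.68 (adjusted p = 0.0240) for XLOC_194743 and 3.19 ± 0.54 (adjusted p = 0.0167) for XLOC_098172. The control livers of XLOC_083589, XLOC_194743 and XLOC_098172 were all listed at 0, so these sizes depend on the pseudocount and are no measure of fold. These loci passed the filter on low values only through the high-intake livers or, for XLOC_098172, only through control SF. This fixes their direction, so their p-values are no support for it. XLOC_083589 was also listed at 0 in all 12 adipose libraries, so no feeding difference in adipose was measured and its value only restates that in liver.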

How the results depend on the processing

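Counts below are distant loci called, and the calls of all lncRNAs under these settings are not given here. For feeding in liver (4) the count was 0 with a pseudocount of 1, 7 with 0.01, 1 with no filter and 24 in one fit over 18 libraries, and 0 to 6 when a library was left out. The replicate numbers do not pair control and high-intake geese (correlations of -0.0997 to 0.0642), and with the replicate number as a block the liver count was 0. For feeding in abdominal adipose (0) the joint fit gave 6, and leaving out a library gave 0 throughout. For feeding in subcutaneous adipose (0) the joint fit, which includes C2-SF, gave 114 of 453, 4 higher and 110 lower. Of the 453 loci, 195 passed the filter on low values only with C2-SF, which favours lower values in high-intake geese (193 lower and 2 higher in the main fit). The joint-fit calls of all lncRNAs are not given here. Leaving out a library gave 0 to 6.

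For liver against abdominal adipose, a mean above 1 FPKM left 21 calls in control and 21 in high-intake geese, and leaving out a library gave 118 to 148 and 105 to 136. For liver against subcutaneous adipose in control geese (192) the count was 75 with a pseudocount of 1, 14 above 1 FPKM, 93 centred on the lncRNA median, 32 centred on the protein-coding median and 334 in the joint fit, and 72 to 300 without a library. In high-intake geese (135) it was 17 above 1 FPKM and 102 to 123 without a library. Between the depots of control geese (1) it was 0 with a pseudocount of 1, 0 above 1 FPKM, 2 centred on the lncRNA median, 55 in the joint fit, 5 with the goose as a block and 0 to 6 without a library. The goose block changed no other tissue count by over 1.5 times.

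For the interaction against abdominal adipose (3, of which 2 higher) a pseudocount of 1 gave 2, none of them higher, 0.01 gave 1, a mean above 1 FPKM gave 1 and leaving out a library gave 1 to 10. Against subcutaneous adipose (3) the count was 0 with a pseudocount of 1, 14 with 0.01, 5 with no filter, 1 above 1 FPKM, 10 and 1 with the lncRNA and protein-coding centring, 17 in the joint fit and 1 to 42 without a library. The loci led by liver (34) numbered 63 at 2 times, 11 at 10 times and 19 in control geese alone. Those led by both adipose tissues (27) numbered 128 at 2 times, 6 at 10 times and 35 in control geese alone, so which of the 2 was larger depended on the setting. In control geese alone without C2-SF, an alternative chosen after seeing the data, they numbered 24 and 21. The locus led by subcutaneous adipose (1) became 84 at 2 times and 35 in control geese alone, and was 1 in control geese alone without C2-SF. The share at 0.1 FPKM or more, 36.4% over 18 libraries, was 4.99% at 1 FPKM and 66.6% above 0, or 4.59% and 64.8% without C2-SF. The 4 loci called in liver lost the call in 31 of 59 fits, and other named loci gained one in 14 fits. The cause of these changes was not tested. Depth limits what low values can show, and most distant loci lie near 0.1 FPKM or below.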
